A study of Mus musculus with 1 sample.

Results

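The desmosome genes described here are Jup, Dsp, Dsg2, Dsc2, Pkp2, Pkp3 and Perp, 7 of the 32285 genes counted in 1 single-cell library of mouse gastric organoids. They were taken by name, with no measured value in the rule, although results of these data were known when the names were chosen. All 7 names were found among the counted genes and all 7 had UMIs, so none was lost to a filter on low values. A UMI, or unique molecular identifier, marks 1 captured RNA molecule.

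Gastric organoids are stomach epithelium grown in culture. The sample was labelled as epithelial cells of wild type genotype with no treatment. Organoids were harvested 7 days after seeding and dissociated for 30 min at 37 °C in 0.05% trypsin-EDTA, per the labels' protocols. The labels name no strain, age or number of animals, and the KP and EKP organoids named in the series text were not analysed here.

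Desmosomes are spot-like junctions that tie the intermediate filaments of neighbouring epithelial cells together and give a cell sheet its mechanical strength. Desmogleins and desmocollins, both cadherins, span the gap between cells. Inside the cell the armadillo proteins plakoglobin and plakophilins bind the cadherin tails, and desmoplakin connects them to keratin filaments. Simple epithelia such as glandular stomach are known for Dsg2 and Dsc2, whereas other desmogleins and desmocollins belong mainly to stratified squamous epithelium. Perp is a membrane protein of desmosomes whose gene is a known target of p53 and p63.

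The library held 20236916 gene UMIs in 1991 barcodes. After the cell filter and the removal of 12 called doublets, 1880 cells remained, with a median of 8476 UMIs per cell and a range of 890 to 47183. Of the glandular epithelium markers, 11 of 11 had at least 1 UMI and 7 had a UMI in over 10% of cells. The rest were Tff2, in 7.02% of cells, Muc5ac in 2.29%, Pgc in 1.65% and Muc6 in 1 cell. Epcam had a UMI in 96.5% of cells and Krt8 in 97.9%. Fibroblast markers summed to 0.301 CPM, endothelial markers to 0.150 CPM and immune markers to 0.150 CPM, where CPM is the UMIs of a gene summed over cells per 1000000 gene UMIs of those cells. Of the markers of squamous forestomach, Krt5 was at 0 and Krt14, Krt13 and Trp63 had 2 to 4 UMIs each and Krt15 had 22, while Krt4 reached 464 CPM. There was 1 library and no replicate, so no difference was tested. The intervals given here are 95% intervals of counting error alone.

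Dsp and Jup carried the most UMIs among the 7 genes, and their promoters are shown because they were the members found in the promoter table. The 250 bases before each RefSeq start are printed 5′ to 3′ on the gene's strand, from RefSeq on GRCm38.p6. Capitals mark GGGCGG, the core of a GC box, on either strand. The Jup window is chr11:100397791-100398040 on the minus strand and the Dsp window is chr13:38151044-38151293 on the plus strand.
Jup: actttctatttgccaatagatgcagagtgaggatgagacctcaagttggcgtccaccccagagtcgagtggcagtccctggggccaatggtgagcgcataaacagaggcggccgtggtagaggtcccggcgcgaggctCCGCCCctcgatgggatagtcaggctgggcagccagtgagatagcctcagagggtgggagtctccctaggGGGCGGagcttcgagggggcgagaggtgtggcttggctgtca
Dsp: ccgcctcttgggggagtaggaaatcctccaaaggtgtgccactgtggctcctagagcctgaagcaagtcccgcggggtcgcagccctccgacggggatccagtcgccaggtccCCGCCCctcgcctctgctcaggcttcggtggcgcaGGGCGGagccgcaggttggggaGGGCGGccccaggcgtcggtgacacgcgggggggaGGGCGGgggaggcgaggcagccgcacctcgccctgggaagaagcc

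Dsp, the desmoplakin gene, had 4 matches to GGGCGG and a GC content of 72.4%. Jup, the plakoglobin gene, had 2 matches and a GC content of 62.0%. The median GC content of 32851 promoter windows of the same length was 52.4%, and 32.7% of them held GGGCGG. The motifs CAGGTG, an E-box bound by repressors of epithelial genes, and AACNNGTT, a Grainyhead site, were searched on both strands and neither occurred in these windows. CAGGTG was in 17.2% of all windows and AACNNGTT in 3.64%. The decamer to which p53 dimers bind had 1 match in Dsp and 0 in Jup, and 7.13% of all windows held at least 1. These matches describe letters, not bound sites.

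The 7 genes fell into 3 bands of level. Jup, Dsp and Perp lay close together at about 70 CPM each, Dsg2 lay below them, and Pkp2, Pkp3 and Dsc2 were detected in few cells. Levels of genes are compared here as CPM without division by gene length, because a 3′ library gives 1 tag per captured transcript whatever its length. Capture may still differ between genes and was not measured.

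Among the armadillo genes, Jup (ENSMUSG00000001552, chr11:100368958-100397763, minus strand) had 1432 UMIs. That was 71.8 CPM (68.1 to 75.6), and 46.5% of cells (44.3 to 48.8) had at least 1 Jup UMI. Plakoglobin, its product, is shared by desmosomes and adherens junctions. Pkp2 (ENSMUSG00000041957, chr16:16213318-16272712, plus strand), the plakophilin of simple epithelia and heart, was at 14.4 CPM (12.8 to 16.1) and in 13.7% of cells. Pkp3 (ENSMUSG00000054065, chr7:141078218-141090510, plus strand), a plakophilin of most epithelia, was at 9.82 CPM (8.50 to 11.3) and in 9.57% of cells. Pkp4, a related armadillo gene whose protein is also found at adherens junctions, was at 57.5 CPM.

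Dsp (ENSMUSG00000054889, chr13:38151294-38198577, plus strand) reached 71.7 CPM (68.0 to 75.5) from 1430 UMIs and was detected in 42.8% of cells (40.6 to 45.1). Dsp and Jup could not be told apart in level, with a ratio of Jup to Dsp of 1.0 (0.930 to 1.08). Of the envelope plakins, which are relatives of desmoplakin that join the cornified envelope in squamous cells, Ppl was at 62.9 CPM and Evpl at 5.96 CPM.

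Among the cadherins, Dsg2 (ENSMUSG00000044393, chr18:20558074-20604521, plus strand) was at 43.7 CPM (40.9 to 46.7) and in 32.9% of cells. Dsc2 (ENSMUSG00000024331, chr18:20030633-20059554, minus strand) was at 4.46 CPM (3.58 to 5.49) and in 4.26% of cells. For each Dsc2 UMI there were 9.80 Dsg2 UMIs (7.87 to 12.3). The antisense gene Gm16090 overlaps Dsg2 and had 0 UMIs.

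Perp (ENSMUSG00000019851, chr10:18845020-18857073, plus strand) reached 68.5 CPM (64.9 to 72.2) from 1367 UMIs and was detected in 43.5% of cells. Its interval overlapped those of Jup and Dsp. Among 16953 genes with a UMI, Jup ranked 1507, Dsp 1509, Perp 1593, Dsg2 2439, Pkp2 5508, Pkp3 6702 and Dsc2 8902. Below Perp each step down the order had a ratio whose interval left out 1, from 1.46 (1.22 to 1.77) for Pkp2 over Pkp3 to 3.04 (2.66 to 3.48) for Dsg2 over Pkp2. The plot of levels and shares sets the 7 genes side by side.

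**Figure D1:**
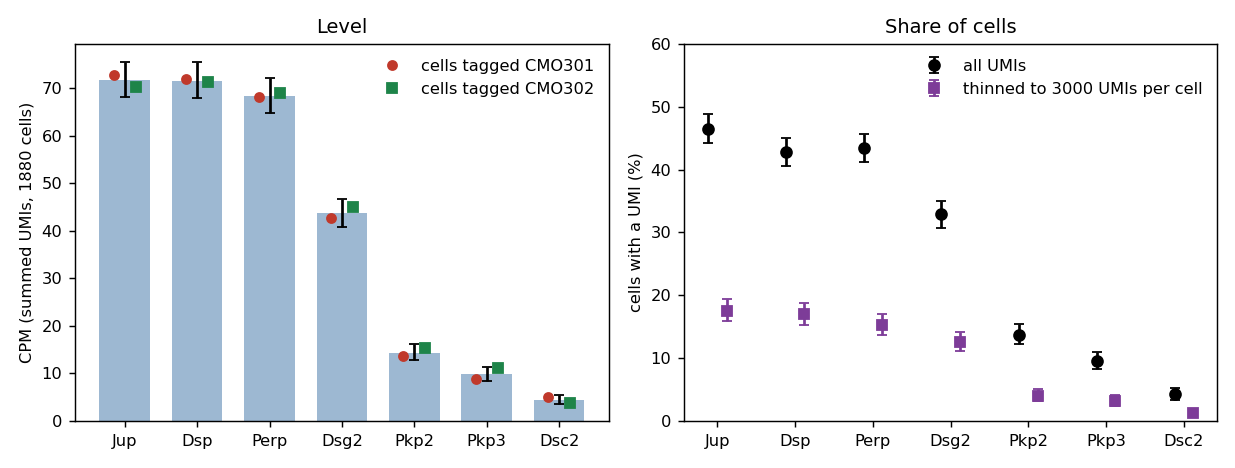
Level in CPM (left; bars are all 1880 cells with 95% Poisson intervals, points are the cells of each multiplexing tag) and percent of cells with a UMI (right; as deposited and after thinning each cell to 3000 UMIs, with 95% Clopper-Pearson intervals) for the 7 desmosome genes. Jup, Dsp and Perp stand at 68.5 to 71.8 CPM, and Dsc2 at 4.46 CPM is the lowest.

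Desmosome genes of other tissues were nearly undetected. Of 9 such genes, 3 had any UMI, and these were Pkp1 with 30 UMIs (1.5 CPM), Dsg3 with 4 and Cdsn with 1. Dsg1a, Dsg1b, Dsg1c, Dsg4, Dsc1 and Dsc3 had a UMI in 0 of 1880 cells. With 3 cells taken as the limit for a count of 0, the share of cells with a UMI may be as high as 0.160%. Dsg2 and Dsc2 were thus the desmosomal cadherins with more than 4 UMIs.

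Summed, the 7 genes had 5673 UMIs, or 284 CPM (277 to 292). At least 1 of these UMIs was found in 1569 cells, 83.5% (81.7 to 85.1). A cell had a median of 2, with quartiles of 1 and 4 and a maximum of 25. No cell held UMIs of all 7 genes, 22 cells held 6 of them and 311 cells held none. If every cell had carried the same fraction of each gene at its own depth, 228 cells would have held none and 12.6 cells 6.

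Shares of cells with a UMI follow depth. After each cell was thinned to 3000 UMIs, which kept 1823 cells and left out 57 shallower ones, Jup was found in 17.6% of cells, Dsp in 17%, Perp in 15.3% and Dsg2 in 12.6%. Pkp2 was then in 4.0%, Pkp3 in 3.18% and Dsc2 in 1.32%. No cell type that should lack desmosome genes was present in numbers, so the share that free RNA alone gives could not be measured.

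At this depth most of the variation of the 7 genes between cells had the size of counting noise. The variance of the thinned counts divided by their mean, which is 1 for pure counting, was 1.02 for Jup, 1.03 for Dsg2, 1.03 for Pkp3, 0.987 for Pkp2 and 0.987 for Dsc2. It was 1.09 for Dsp and 1.22 for Perp, and 1.12 for Cdh1, which is near Dsp and Perp in level. Aurka, a mitotic gene at 7.72 CPM and so near Pkp3 and Dsc2 in level, had 1.17. This measure grows with the level of a gene, so abundant genes such as the keratins are not set beside it. One cell held 19 Perp UMIs, where the next highest cell held 8, and without it the Perp value was 1.14. Dsp was seen in 42.8% of cells where an equal fraction in every cell would give 48.8%, Perp in 43.5% where it would give 47.5%, and Pkp2 in 13.7% where it would give 13.8%.

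The cells were split into 7 clusters from genes that did not include the members or any listed gene. The clusters are called by number and by their leading genes. Cluster 1 (477 cells) was led by Aox3, Scgb3a1 and Cbr2, cluster 2 (398) by Ly6m, Sprr1a and 2610528A11Rik, cluster 3 (314) by Cxcl2, Cxcl5 and Mgat4c, and cluster 4 (302) by Mt1, 2610528A11Rik and 5430416N02Rik. Cluster 5 (238 cells) was led by Psca, Prss22 and Gmpr, cluster 6 (90) by Aspm, Dlgap5 and Knl1, and cluster 7 (61) by Cyba, Reg3g and Gm3776. Cluster 7 stood apart from the others in holding 70 Y-linked UMIs, against 0 to 6 in each other cluster. Median depth ran from 5828 UMIs in cluster 4 to 14281 in cluster 7, so clusters are compared in CPM. The summed glandular markers ran from 3454 CPM in the lowest cluster to 8940 in cluster 7, and the summed squamous markers, nearly all Krt4, from 171 in the lowest cluster to 774 in cluster 3. Their part in the differences of the members was not tested.

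Between their highest and lowest cluster, Dsc2, Dsp and Dsg2 had the largest folds. Dsp was highest in cluster 2 and lowest in cluster 5, Dsg2 was high in clusters 2 and 7, Perp was high in clusters 2 and 7 and lowest in cluster 1, and Dsc2 was highest in cluster 7. Jup varied by 1.39-fold (1.13 to 1.73) between its highest and lowest cluster. A cell was assigned to a cluster from other genes of the same cell, so these values are descriptions.

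Dsp stood at 59.3 CPM in cluster 1, 106 in cluster 2, 73.0 in cluster 3, 59.8 in cluster 4, 37.6 in cluster 5, 52.0 in cluster 6 and 61.9 in cluster 7. The interval of cluster 2 (97.3 to 116) overlapped that of no other cluster. Against all other clusters, Dsp was 1.77-fold higher in cluster 2 (1.58 to 1.97) and in cluster 5 it was at 0.498 of their level (0.389 to 0.630).

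Dsg2 was at 32.6 CPM in cluster 1, 60.7 in cluster 2, 43.5 in cluster 3, 43.2 in cluster 4, 24.4 in cluster 5, 33.0 in cluster 6 and 60.8 in cluster 7. Its low point, like that of Dsp, was cluster 5. Cluster 2 had 1.60 times the Dsg2 of the other clusters (1.38 to 1.84) and cluster 7 had 1.42 times (1.07 to 1.85). The ratio for cluster 5 was 0.532 (0.389 to 0.712).

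Dsc2 was at 2.26 CPM in cluster 1, 5.59 in cluster 2, 4.81 in cluster 3, 3.52 in cluster 4, 2.54 in cluster 5, 4.13 in cluster 6 and 13.2 in cluster 7. Its ratio to the other clusters was 0.445 in cluster 1 (0.206 to 0.862) and 3.29 in cluster 7 (1.68 to 5.97). The last value rested on 13 UMIs. One cell of cluster 7 gave 4 of these 13, and without that cell the ratio was 2.38. There were 4.62 Dsg2 UMIs per Dsc2 UMI in cluster 7 (2.51 to 9.17).

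Jup was at 60.4 CPM in cluster 1, 79.6 in cluster 2, 84.0 in cluster 3, 60.3 in cluster 4, 65.0 in cluster 5, 71.9 in cluster 6 and 64.9 in cluster 7. Its ratio to the other clusters was 1.23 in cluster 3 (1.09 to 1.39) and 1.15 in cluster 2 (1.02 to 1.29). In cluster 5, where Dsp and Dsg2 were lowest, the Jup ratio was 0.897 with an interval that held 1. Ctnnb1, the beta-catenin gene, is the closest relative of Jup among the adherens junction genes. Jup had 0.660 UMIs per UMI of Ctnnb1 in all cells and 0.408 in cluster 7 (0.30 to 0.548). Ctnnb1 was at its highest in cluster 7, at 159 CPM.

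Pkp2 was at 15.2 CPM in cluster 1, 12 in cluster 2, 19.5 in cluster 3, 8.55 in cluster 4, 9.14 in cluster 5, 16.5 in cluster 6 and 20.3 in cluster 7. It did not share the high point of Dsp, since its ratio in cluster 2 was 0.788 (0.583 to 1.05). The ratio was 1.5 in cluster 3 (1.15 to 1.94) and 0.569 in cluster 4 (0.326 to 0.928). Pkp3 ranged from 7.43 CPM in cluster 6 to 11.2 in clusters 3 and 7, with a ratio between cluster 3 and cluster 6 of 1.51 (0.734 to 3.49). At this depth no difference of Pkp3 between clusters was detectable.

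Perp was at 46.9 CPM in cluster 1, 90.6 in cluster 2, 68.2 in cluster 3, 66.4 in cluster 4, 57.4 in cluster 5, 66.9 in cluster 6 and 83.2 in cluster 7. Its ratio to the other clusters was 1.48 in cluster 2 (1.32 to 1.66) and 0.628 in cluster 1 (0.539 to 0.728). The cell with 19 Perp UMIs belongs to cluster 2, and without it that ratio was 1.43. The plot of CPM by cluster shows the 7 genes with their intervals.

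**Figure D2:**
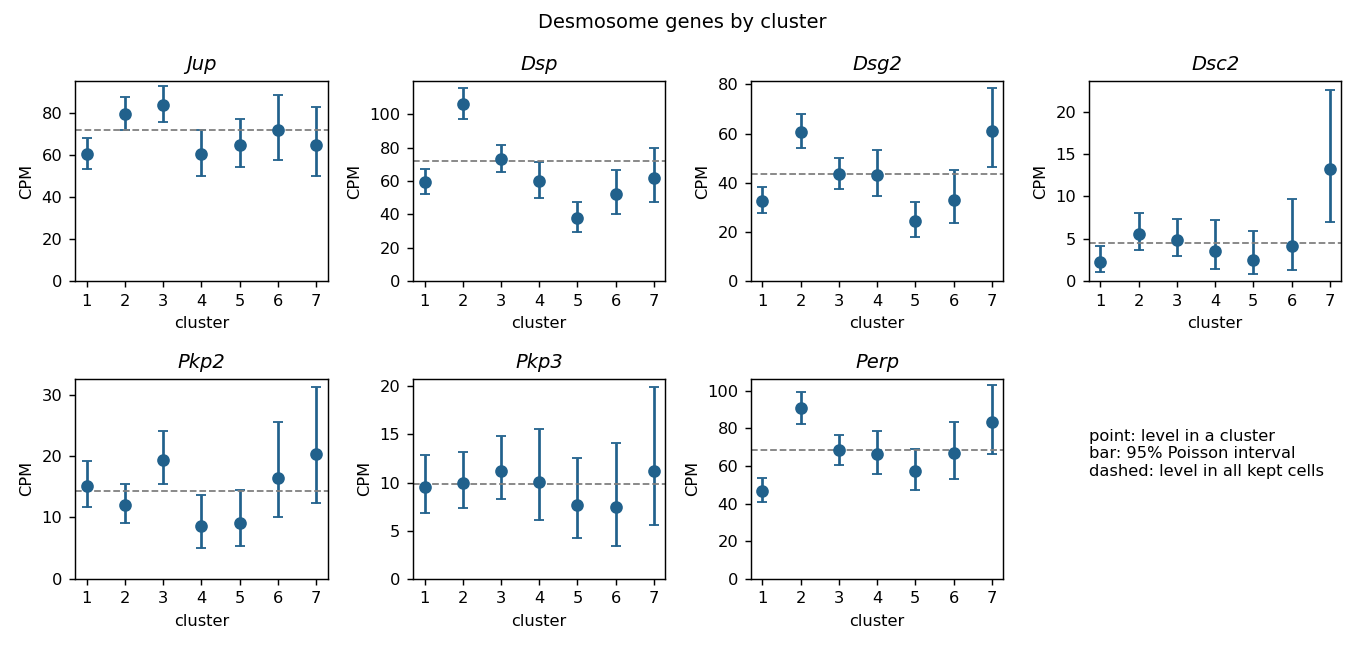
Level in CPM (vertical axis) of each desmosome gene in clusters 1 to 7 (horizontal axis), 1 panel per gene, with 95% Poisson intervals and the level in all kept cells as a dashed line. Dsp peaks in cluster 2, Perp is high in clusters 2 and 7, Dsp and Dsg2 are lowest in cluster 5, and Dsc2 stands at 13.2 CPM in cluster 7.

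Counted against a fold of 1.5, 2 of 7 members were past it higher in cluster 2 (Dsp and Dsg2), where 6.43% of 10109 genes with at least 50 UMIs were past it higher and 12.9% lower. In cluster 5, 4 of 7 were past it lower (Dsp, Dsg2, Dsc2 and Pkp2) and 0 higher, against 25.6% of genes lower and 2.71% higher. Clustering resolution 0.3 merged clusters, so that clusters 1, 3 and 5 had the same best match of 1002 cells, 205 of them from cluster 5. In that merged cluster the Dsp and Dsg2 ratios were 0.729 and 0.670. Clusters 2 and 4 shared a best match of 727 cells, where the Dsg2 ratio of 1.46 was short of the fold. At resolution 1.0 the Dsp ratio of cluster 2 was short of it. Pkp2 was counted in cluster 5 on 18 UMIs, with a ratio of 0.611 (0.357 to 0.985) that was 0.452 within CMO301 cells and 0.863 within CMO302 cells, which is short of the fold. Dsc2 was counted in cluster 5 on 5 UMIs, with a ratio of 0.544 whose interval held 1 (0.172 to 1.32). In cluster 1, 2 of 7 were past it lower (Perp and Dsc2) and 0 higher, against 11.1% of genes lower and 3.36% higher. The Perp ratio of cluster 1 was 0.732 in the merged cluster of resolution 0.3. Over the other alternatives it ran from 0.562 to 0.684 and was short of the fold as a mean over cells and in CMO301 cells. Cluster 3 had 1 member past it, Pkp2, which was higher, against 12.8% of genes higher and 4.05% lower. That Pkp2 ratio lay at the fold itself, and it was 1.27 in the merged cluster of resolution 0.3. Over the other alternatives it ran from 1.35 to 1.68, past 1.5 in some and short of it in most. Cluster 4 had 1 member past it, again Pkp2, which was lower, against 29.3% of genes lower and 3.12% higher, with a ratio of 0.501 to 0.722 over the alternatives. Cluster 7 had 1 member past it, Dsc2, which was higher, against 23.3% of genes higher and 18.8% lower. Cluster 6, where 13.9% of genes were past the fold higher and 9.97% lower, had 0 in either direction. The median ratio of the members was 1.37 in cluster 2, where that of all genes was 0.974, and 0.611 in cluster 5, where that of all genes was 0.847. Cluster 4 also had a low median ratio over all genes, 0.815. Median depth was 5828 UMIs in cluster 4, 7230 in cluster 5 and 7510 in cluster 1, and the part of depth in these ratios was not tested.

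Clusters 2 and 5, which hold the extremes of Dsp, were compared directly, a choice made after their values were seen. Dsp was 2.82-fold higher in cluster 2 (2.21 to 3.65), Dsg2 was 2.49-fold higher (1.83 to 3.45) and Perp was 1.58-fold higher (1.28 to 1.96). Jup was 1.22-fold higher (1.0 to 1.51), and Pkp2 and Pkp3 each had a ratio of 1.31. Dsc2 had a ratio of 2.20 from 28 and 5 UMIs, with an interval from 0.839 to 7.30. Past 1.5-fold higher were 4 of 7 members and 0 were past it lower, against 24.1% of genes higher and 8.81% lower. These are shares of 7403 genes with at least 50 UMIs in both clusters together, a minimum that Dsc2 does not reach here. Of the 5 keratin genes, 4 were lower in cluster 2, with ratios of 0.660 for Krt7, 0.787 for Krt8, 0.805 for Krt18 and 0.892 for Krt19. Krt20 had a ratio of 1.15 (0.712 to 1.91). In thinned cells Dsp was found in 28.4% of cluster 2 (23.9 to 33.2) and in 6.75% of cluster 5 (3.91 to 10.7).

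The make-up of the desmosome UMIs differed accordingly. Dsp gave 29.1% of the UMIs of the 7 genes in cluster 2 and 18.5% in cluster 5, while Jup gave 21.8% and 31.9%. There were 1.33 Dsp UMIs per Jup UMI in cluster 2 (1.17 to 1.52) and 0.578 in cluster 5 (0.428 to 0.776). Against its relative Ppl, Dsp had 0.627 UMIs per Ppl UMI in cluster 5 (0.462 to 0.846) and 2.44 in cluster 7 (1.51 to 4.06). Ppl was at its lowest in cluster 7, at 25.4 CPM, where Dsp was at 61.9 CPM.

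**Figure D3:**
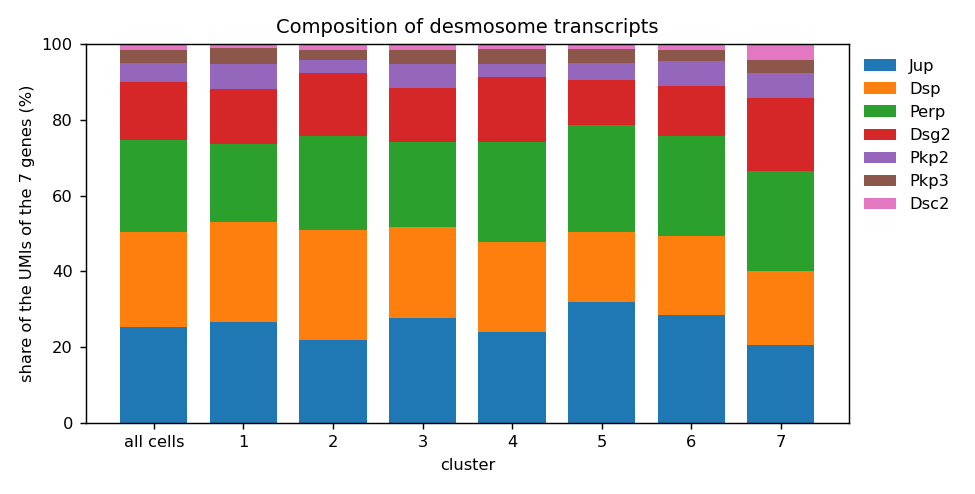
Percent of the UMIs of the 7 desmosome genes (vertical axis) that came from each gene, in all kept cells and in clusters 1 to 7 (horizontal axis). The share of Dsp is 29.1% in cluster 2 and 18.5% in cluster 5, and that of Jup is 21.8% and 31.9%.

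The summed desmosome genes and the summed adherens junction genes (Cdh1, Ctnna1, Ctnnb1 and Ctnnd1, the genes of E-cadherin and its catenins) had their highest ratios in different clusters. In cluster 2 the desmosome sum was 1.42 times that of the other clusters (1.34 to 1.5), and the adherens sum 0.923 times (0.880 to 0.969). In cluster 3 the desmosome sum was 1.09 times (1.03 to 1.16) and the adherens sum 1.38 times (1.32 to 1.44). Elsewhere the sums often lay on the same side of 1. In cluster 7 the desmosome sum was 1.12 times (0.992 to 1.25) and the adherens sum 1.25 times, in cluster 4 they were 0.875 and 0.630 times, and in cluster 5 they were 0.695 and 0.777 times. Per adherens UMI there were 0.838 desmosome UMIs in cluster 2, 0.834 in cluster 4, 0.504 in cluster 1 and 0.615 in all cells.

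Keratins gave a further pattern. In cluster 5 the 5 keratin genes Krt7, Krt8, Krt18, Krt19 and Krt20 summed to 1.35 times the other clusters (1.32 to 1.38), while the desmosome sum was 0.695 times (0.626 to 0.769). Desmosome UMIs per keratin UMI were 0.0904 in cluster 2 and 0.0399 in cluster 5. The plot of summed ratios sets the 3 groups of genes side by side.

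**Figure D4:**
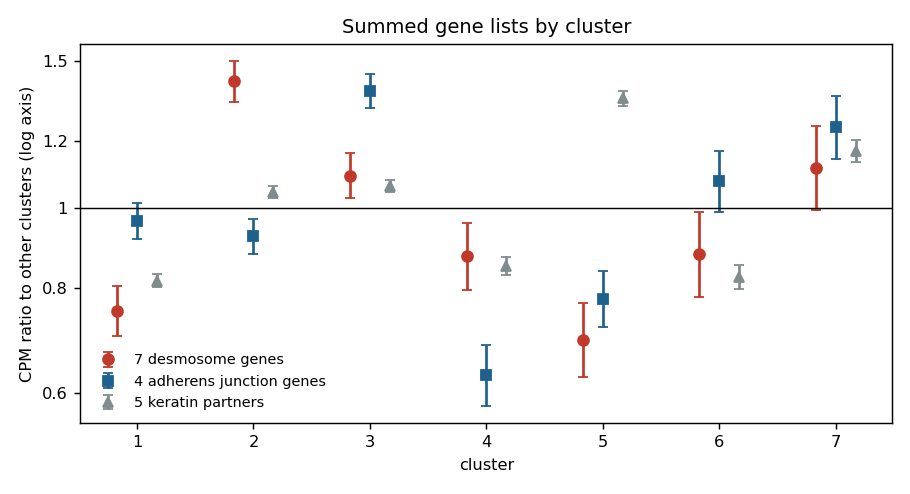
Ratio of the summed CPM of a cluster to that of the other clusters (vertical axis, log scale) for the 7 desmosome, 4 adherens junction and 5 keratin genes in clusters 1 to 7, with 95% conditional binomial intervals. The desmosome sum is 1.42 in cluster 2 and 0.695 in cluster 5, where the keratin sum is 1.35.

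Perp was read beside the p53 genes because it is a p53 target. In cluster 7 all 7 genes of the p53 list were past 1.5-fold higher, against 23.3% of genes, with Cdkn1a, the p21 gene, at 11.1-fold, Ccng1 at 5.41-fold, Trp53 at 4.67-fold, Bax at 3.11-fold and Mdm2 at 2.61-fold. Perp had a ratio of 1.23 there, with an interval that held 1 (0.969 to 1.54). In cluster 2 Perp was at 90.6 CPM, with an interval that overlapped that of cluster 7. In thinned cells Perp was found in 30.0% of cluster 7 (18.8 to 43.2) and 22.1% of cluster 2 (18.1 to 26.6). In cluster 2, 0 of the 7 p53 genes were past 1.5-fold higher, against 6.43% of genes, and Cdkn1a had a ratio of 1.01. Trp53 was past it lower there, at 0.572 (0.367 to 0.861), against 12.9% of genes. Cluster 7 holds 70 Y-linked UMIs, against 0 to 6 in each other cluster, and whether its cells came from another culture was not tested. By scores of cell cycle genes, 26 of its 61 cells were called G2/M and 14 S. Over all clusters, the 7 p53 genes had ratios of G2/M to G1 cells from 1.16 for Trp53inp1 to 2.18 for Cdkn1a. The part of phase in the cluster 7 ratios was not tested.

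Cell cycle phase went with small differences. By phase scores 1404 cells were called G1, 289 S and 187 G2/M. Dsp was at 75.1 CPM in G1, 63.9 in S and 58.2 in G2/M cells. Cells in S or G2/M had 0.813 times the Dsp of G1 cells (0.713 to 0.925), but 1.01 times (0.902 to 1.12) when cycling cells were those with a UMI of Mki67 or Top2a. With that second call Pkp2 had 1.38 times the level of the other cells (1.08 to 1.76), and the other 6 intervals held 1. By phase scores the intervals of all genes but Dsp held 1, and 0 of 7 members were past 1.5-fold in either direction, where 8.22% of genes were past it higher and 2.8% lower. The sum of the 7 genes was 0.949 times that of G1 cells (0.892 to 1.01). It was 0.929 times without cluster 7 (0.869 to 0.993) and 0.926 times with ribosomal and mitochondrial genes out of the denominator (0.870 to 0.986), and both intervals leave out 1. Cluster 6, led by mitotic genes, had the low Dsp ratio of 0.713 (0.545 to 0.919).

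The library carried 12 multiplexing tags, and 1057 kept cells had most UMIs of CMO301 and 823 of CMO302. The labels do not say what the tags mark. Between these cells all 7 ratios had intervals that held 1, from 0.781 for Pkp3 to 1.35 for Dsc2, and the sum had a ratio of 0.989 (0.938 to 1.04). Past 1.5-fold were 0 of 7 members, against 1.29% of genes higher and 1.34% lower. The cluster 2 ratio of Dsp was 1.88 within CMO301 cells and 1.63 within CMO302 cells, that of Perp was 1.48 within each, and that of Dsg2 was 1.78 and 1.40. The cluster 5 ratio of Dsp was 0.528 and 0.448.

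Across single cells the 7 genes varied together only weakly. Correlations were computed on Pearson residuals, which are counts corrected for the depth of the cell. Over the 21 pairs and 1880 cells the median Pearson r was 0.0153, and 14 pairs were positive. The highest r was 0.0679 for Dsp with Dsg2, followed by 0.0570 for Dsp with Perp, and the lowest was -0.0199 for Dsc2 with Pkp3. Jup had r between 0.0282 and 0.0373 with each of the other 6, but in thinned cells its r was negative with 3 of them, down to -0.0416 with Perp. All cells share 1 library, and in counts this sparse values of this size are no finding for a single pair.

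Within clusters the median r of the 21 pairs was 0.0121 and the highest 0.0329. In thinned cells the median was 0.00839, and it was 0.0146 in CMO301 cells and 0.0163 in CMO302 cells. The 6 pairs of adherens junction genes had r from 0.0803 to 0.161 with a median of 0.112, at levels of 69.1 to 185 CPM. The 10 keratin pairs had a median of 0.289. The 10 pairs of the mitotic genes Mki67, Top2a, Aurka, Ccnb1 and Bub1 had a median of 0.462 at levels of 3.61 to 68.8 CPM, a range that reaches below that of Dsc2. In thinned cells these medians were 0.0529 for the adherens, 0.134 for the keratin and 0.284 for the mitotic pairs. The plot of pair correlations shows all pairs of each group.

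**Figure D5:**
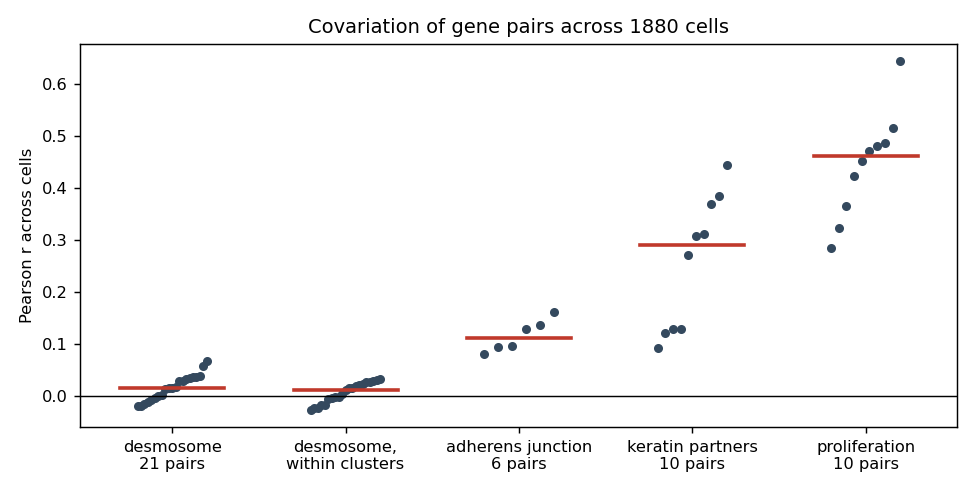
Pearson r across 1880 cells (vertical axis) of gene pairs in the desmosome, adherens junction, keratin and mitotic groups (horizontal axis), with each group's median as a red line. Desmosome pairs lie between -0.0199 and 0.0679, and the adherens pairs between 0.0803 and 0.161.

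Each member was also set against the summed residuals of the other 6. The r was 0.0843 for Dsp, 0.0724 for Jup, 0.0693 for Dsg2 and 0.0626 for Perp, and 0.0244 or less for Pkp2, Dsc2 and Pkp3. Within clusters it was lower, at 0.0520 for Jup, 0.0375 for Dsp, 0.0239 for Dsg2 and 0.0219 for Perp. The summed desmosome genes had r of 0.164 with the summed adherens genes (0.156 within clusters) and of 0.0595 with the summed keratins.

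Cells were then ranked by the thinned UMIs of the other 6 genes, and cells with more than 1 were compared with cells with 0. Dsp was at 85.6 CPM in the high cells and 67.3 in the low cells, a ratio of 1.27 (1.09 to 1.48). Dsg2 had a ratio of 1.22 (1.0 to 1.46), Pkp3 of 1.30 (0.879 to 1.90), Perp of 1.15 (0.985 to 1.34), Pkp2 of 1.08, Jup of 0.974 (0.823 to 1.15) and Dsc2 of 0.673 (0.332 to 1.27). Past 1.5-fold were 0 of 7 members. When cells were ranked on all 7 genes, 4.52% of genes were past it higher and 1.41% lower. Of the cells high in all 7, 36.0% belonged to cluster 2, against 13.7% of those low, and the part of cluster membership in these ratios was not tested. Ranking on the fraction of all UMIs in place of thinned UMIs, chosen after seeing the data, gave Jup a ratio of 1.36 (1.14 to 1.62) and Dsc2 a ratio of 1.21. The Dsc2 ratio rests on few UMIs, and with the thinned ranking it was 0.472 in CMO301 cells and 1.29 in CMO302 cells.

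The genes most like the 7 together were found by the r of their residuals with the summed member residuals across 1880 cells, among genes with a UMI in at least 20% of cells. The highest were Ptbp3 (r = 0.229), Golga4 (0.220), Aplp2 (0.208), Emp1 (0.200) and Btg1 (0.197). The lowest were Tmem176b (-0.217), Uqcr11 (-0.216) and Tmem176a (-0.210). Within clusters these were -0.106, -0.142 and -0.0968, and in thinned cells -0.149, -0.118 and -0.156. Within clusters Emp1 was at 0.133 and Btg1 at 0.126, and the other 3 of the highest genes were at 0.157 to 0.178. For single members, Klf6 had r of 0.215 with Dsp, Aplp2 0.146 with Jup, Golga4 0.138 with Dsg2, and Mal 0.125 with Dsc2. Phgr1 had r of 0.197 with Perp, Ptpn14 0.102 with Pkp2 and Herc1 0.0933 with Pkp3. These genes were picked as the highest of all genes compared, and their r was lower in thinned cells. S100a6, second after Phgr1 for Perp with r of 0.188, was an exception, at 0.198 in thinned cells. Thinned r with the summed members was 0.0992 for Ptbp3, 0.132 for Golga4, 0.0745 for Aplp2, 0.119 for Emp1 and 0.109 for Btg1. For single members thinned r was 0.0191 for Mal with Dsc2, 0.0285 for Golga4 with Dsg2 and 0.0346 for Aplp2 with Jup. For Ptpn14 with Pkp2 it was 0.0433 and for Herc1 with Pkp3 0.0278. All of these lay below the 0.0687 of the member pair Dsp and Dsg2 in the same thinned cells. Thinned r was above that for Phgr1 with Perp, at 0.138, and for Klf6 with Dsp, at 0.0802.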

How the data were processed

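The deposited matrix holds whole-number UMI counts per gene and barcode, not normalized by the authors. Cell Ranger 6.1.2 wrote it, per the file headers, and the series' design text gives GRCm38/mm10 as the mapping build. The annotation behind the counts is not given in the sources used here. Gene positions came from GENCODE M21 (GRCm38).

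Cells with at least 500 genes and at most 20% mitochondrially encoded UMIs were kept, and doublets were called with Scrublet in scanpy 1.11.5 (12 of 1892 cells, 0.634%). From the deposited counts, CPM were computed. Levels carry exact Poisson intervals, shares Clopper-Pearson intervals and ratios conditional binomial intervals, all at 95%. PCR duplicates were collapsed by UMI.

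Clusters came from Leiden clustering (leidenalg 0.10.2, resolution 0.6, seed 0, 30 principal components, 15 neighbours) on 2000 variable genes without the members and without listed, marker, sex-linked, cell cycle and mitochondrial genes. Correlations used analytic Pearson residuals (theta 100). Thinning sampled 3000 UMIs per cell without replacement. A fold of 1.5 describes size and is no test. Ratios, their intervals and the pair correlations were checked on simulated Poisson counts, the model that the intervals assume. Clustering, doublet calls, thinning, phase calls and rankings were not checked in this way. Alternatives were other cell filters, denominators, clusterings, phase calls and rankings.

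The members and gene lists were chosen with earlier results of these data known. Named genes are the members, the listed and marker genes, the 3 leading genes of each cluster, and for likeness the 5 highest and 3 lowest genes and the highest for each member. S100a6, the second highest for Perp, is named as well. Leading genes were those of highest fold with 50 or more UMIs in the cluster, found in 10% or more of its cells.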

Additional observations from a re-analysis of the deposited data

How the results depend on the processing

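With 1 library, no result could be checked on a second sample, and cells are not replicates. No paired analysis was possible because all cells came from 1 library. Of 206 alternative values for 40 results, 27 values of main results and 147 of other results stayed within their limits, while 4 and 26 moved and 0 and 2 reversed. The summed level of 284 CPM was 267 as a mean over cells and 473 with ribosomal and mitochondrially encoded genes out of the denominator. Of 49 pairs of a member and a cluster, 11 were past 1.5-fold. That number was 9 with seed 1, 15 as a mean over cells and 16 in CMO302 cells. It was 15 at clustering resolution 1.0, which gave 9 clusters, and 3 at resolution 0.3, which gave 3 clusters. At resolution 0.3 the Jup ratio of cluster 3, 1.23, became 0.952 in the best matching cluster. When any Mki67 or Top2a UMI marked a cell as cycling, the summed ratio of cycling to other cells went from 0.949 to 1.04 and that of Dsp from 0.813 to 1.01, and the cause was not tested. The Dsp ratio of cluster 2 stayed above 1, from 1.39 at resolution 1.0 to 2.01 with members and listed genes left in the clustering, and the Perp ratio there was 1.22 with seed 1. The share of genes past 1.5-fold higher in cluster 2 was 5.46% among genes with at least 200 UMIs and 12.5% among genes with at least 1 UMI. Depth limits Dsc2, Pkp2 and Pkp3 most.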

Other observations

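Genes known to act on desmosomes or on epithelial junction genes were read beside the members. Klf5, a Krüppel-like factor of proliferating epithelium, was at 247 CPM and Elf3, an epithelial ETS factor, at 94.2 CPM. Of the Grainyhead-like factors, which activate junction genes, Grhl1 was at 14.2 CPM, Grhl2 at 10.9 CPM and Grhl3 had 6 UMIs. Ovol1 was at 5.81 CPM and Ovol2 at 5.21 CPM. Adam10 and Adam17, proteases that cut cadherins at the cell surface, were at 33.3 and 22.9 CPM, and the kinase gene Prkca was at 16.9 CPM.

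Of the 9 of these genes with at least 50 UMIs, 0 were past 1.5-fold higher in cluster 2, where Dsp and Dsg2 were, and 2 were past it lower, against 6.43% of all genes higher and 12.9% lower. Those 2 were Ovol1 (ratio 0.409) and Ovol2 (0.624), which rested on 14 and 18 UMIs in cluster 2. In cluster 3, 3 of 9 were past it higher, against 12.8% of all genes, with ratios of 2.70 for Ovol1, 1.82 for Grhl1 and 1.66 for Adam17. Pkp2 was the member with its ratio of 1.5 in that cluster. In cells high in the 7 members, Ppl had a ratio to cells low in them of 1.32 (1.15 to 1.53), and Cdh1 of 1.2 (1.07 to 1.35), while Krt8 had 0.989 (0.954 to 1.03). Of the 7 p53 genes, 2 were past 1.5-fold higher in the high cells, Ccng1 (1.56, 1.19 to 2.03) and Trp53inp1 (1.54, 1.12 to 2.09), where 4.52% of all genes were. The ratio was 1.45 for Cdkn1a, 1.14 for Bax, 1.14 for Phlda3, 0.858 for Trp53 and 0.849 for Mdm2, so the list did not lie on one side of 1.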
